A study of Mus musculus with 160 samples.

Results

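The genes described are the 8 mouse tripartite motif genes Trim12a, Trim12c, Trim30a, Trim30b, Trim30c, Trim30d, Trim34a and Trim21, taken by symbol from 56980 genes in the deposited tables. All 8 were found. They were chosen by their levels in these strains and tissues, already known, so levels by strain and tissue are given as a description with no test. Diet, the interaction of strain and diet, and the variation between mice of 1 strain were not used in the choice, and these were tested. Only transcript levels were measured, so nothing here bears on whether a protein restricted a virus.

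Tripartite motif (TRIM) proteins join a RING ubiquitin ligase domain to a B-box and a coiled coil, and many end in a domain that binds a target. The primate relative TRIM5 blocks retroviruses by binding the incoming capsid, and in the mouse the corresponding stretch of the genome holds a cluster of Trim5, Trim12, Trim30 and Trim34 copies. TRIM30a is known as an inhibitor of Toll-like receptor signalling that lowers the adaptors TAB2 and TAB3, and TRIM21 as a receptor inside the cell for antibody bound to virus. Many of these genes are induced by interferon, and leukocytes express them in tissues such as fat.

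PolyA RNA of 35 male mice gave 160 libraries; the mice belonged to the inbred strains A/J, C57BL/6J, SJL and DBA/2J. They lived on chow until 12 weeks of age, then ate feed modelled on 1 of 4 human diets (vegan, vegetarian, American or Mediterranean) for 6 weeks, and were killed aged 18 weeks. The diets had equal calories and macronutrients and differed in where the nutrients came from; none of the libraries came from a mouse kept on chow, so every diet is set against the American one. Each of 5 tissues (liver, quadriceps muscle, and brown, subcutaneous and visceral fat) had 2 mice for each strain and diet, that is 8 libraries per strain and 32 per tissue. The mice of a group are separate animals by their labelled numbers.

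Library totals ran from 17996919 to 54796454 estimated counts. Some libraries outside the liver held liver RNA: the liver gene Alb exceeded 10% of its liver mean in 4 of 32 brown fat, 8 of 32 muscle, 4 of 32 subcutaneous and 9 of 32 visceral libraries. Some also held, at over 10% of the level there, liver transcripts that the liver of their own strain lacks and that of another strain has. With libraries under 10% of the median for the marker of their depot (Wt1 for visceral, Hoxc10 for subcutaneous fat), 5 brown fat, 9 muscle, 5 subcutaneous, 13 visceral and 0 liver libraries were doubted, and results that change without them are given both ways. Reads of the strains other than C57BL/6J were aligned with a relaxed mismatch penalty to the C57BL/6J genome. A difference between C57BL/6J and another strain therefore cannot be told apart from a difference in alignment. The same holds for a difference among the other strains, whose reads were all aligned to a genome not their own. Whether the strains differ in gene content was not tested.

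The 8 genes lie on chromosome 7 of GRCm39, and 7 of them are one cluster. Trim34a lies at chr7:103893663-103911446 on the forward strand. The others of the cluster are on the reverse strand: Trim12a at chr7:103945967-103964797, Trim12c at chr7:103987961-104002601, Trim30b at chr7:104004589-104019103, Trim30c at chr7:104031272-104050044, Trim30a at chr7:104058232-104114407 and Trim30d at chr7:104119221-104157107. Trim21 stands apart at chr7:102207128-102214704, also on the reverse strand. All are annotated as protein coding. Between Trim34a and Trim12c lie also Trim5 and Trim34b, close copies that are not among the 8 and are used here only to read the shares of copies.

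The coding sequences set how well reads can be placed. The 891 coding bases of Trim12a matched the longer coding sequence of Trim12c at 96.4% and that of Trim5 at 97.1%. Trim34a and Trim34b were 98.8% identical and Trim30a and Trim30d 90.3%, whereas Trim21 reached at most 61.1%, with Trim6, over the whole coding sequence. Of all stretches of 150 bases (one read) in the transcripts, 19.6% in Trim34a, 10% in Trim30b, 7.46% in Trim30a, 6.87% in Trim12c, 3.07% in Trim30d and 1.57% in Trim12a were also found in another gene, and 0 in Trim30c and Trim21. For Trim34a most of them were shared with the gene Gm47248, and for Trim30b with Gm36430. The counting split such reads: of the counts above 0, 66.3% were not whole for Trim12c, 53.1% for Trim34a and 41.4% for Trim12a. For Trim30a the share was 36.3%, for Trim30d 31.2%, for Trim30b 15.8%, for Trim30c 9.62% and for Trim21 6.88%. Levels of Trim12a, Trim12c, Trim30a, Trim30b, Trim30d and Trim34a are therefore uncertain by the share of reads that fits another gene. Trim21 is the least affected.

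The promoters are printed because 5 of the 8 genes share an element that interferon-activated factors are known to bind. In the RefSeq promoter table (GRCm38.p6, from 250 bases before to 50 after the start of transcription, 8 of 8 genes matched), the repeat GAAA-NN-GAAAC (N is any base) on either strand was found in Trim12a, Trim12c, Trim30a, Trim30d and Trim34a. It occurs in 269 of 32851 promoters (0.819%). The shorter GAAA-NN-GAAA, which is contained in the first, was found in these and in Trim21, and in 3.44% of all promoters. Neither was found in Trim30b or Trim30c, which says only that these letters are not in that window. The Trim30b window, chr7:104007804-104008103 on GRCm39, lies inside the annotated gene, whose 5′ end at 104019103 was not searched. Each line below is 100 bases, 5′ to 3′ in the direction of the gene, with the motif in capitals; in Trim21 2 overlapping matches of the shorter motif are capitalised together.
Trim12a: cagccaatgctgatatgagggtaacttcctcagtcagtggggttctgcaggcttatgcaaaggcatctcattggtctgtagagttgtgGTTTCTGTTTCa
Trim12c: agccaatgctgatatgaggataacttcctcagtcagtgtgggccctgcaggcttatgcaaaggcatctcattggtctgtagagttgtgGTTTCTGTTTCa
Trim30a: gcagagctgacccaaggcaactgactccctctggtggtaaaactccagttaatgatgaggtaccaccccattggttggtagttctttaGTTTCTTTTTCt
Trim30d: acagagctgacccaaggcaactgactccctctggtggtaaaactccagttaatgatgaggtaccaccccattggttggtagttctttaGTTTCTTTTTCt
Trim34a: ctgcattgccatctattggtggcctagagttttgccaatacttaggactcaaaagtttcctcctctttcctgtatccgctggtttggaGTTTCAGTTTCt
Trim21: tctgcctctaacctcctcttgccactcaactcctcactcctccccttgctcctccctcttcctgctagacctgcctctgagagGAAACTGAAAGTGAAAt
On GRCm39, where each promoter was found by an exact match, these windows lie for Trim12a at chr7:103964682-103964781, for Trim12c at chr7:104002575-104002674, for Trim30a at chr7:104114426-104114525, for Trim30d at chr7:104157087-104157186, for Trim34a at chr7:103893585-103893684 and for Trim21 at chr7:102214660-102214759; Trim30a has a second promoter in the table, not printed. The windows of Trim30a and Trim30d were 99.0% identical, and those of Trim12a and Trim12c 95.05%. In the first 5 the motif reads on the strand opposite to the gene, and in Trim21 on the same strand.

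Trim12a, the shorter Trim12 copy, was counted almost only in C57BL/6J. Levels are in CPM, estimated counts per 1000000 of the library, scaled by the trimmed mean of M-values within a tissue. In C57BL/6J subcutaneous fat the lowest, median and highest of 8 libraries were 40.3, 55.0 and 62.5 CPM, and the mean was 54.1 ± 7.22 CPM (SD, n = 8). In visceral fat the 8 libraries ran from 11.1 through a median of 17.6 to 23.1 CPM, in brown fat from 6.53 through 9.01 to 10.7, in liver from 3.14 through 6.69 to 9.61 and in muscle from 1.98 through 4.57 to 7.47.

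In the other strains Trim12a was at or near 0. The mean in the subcutaneous fat of A/J, DBA/2J and SJL was 0.438 ± 0.48, 0.107 ± 0.102 and 0.0916 ± 0.0723 CPM (SD, n = 8 each), and in liver no library of these strains held more than 4.83 estimated counts. All 8 C57BL/6J libraries lay above all libraries of the other strains in each tissue by TMM-scaled CPM. In muscle the gap was small, with 1.98 CPM in the lowest C57BL/6J library (mouse 7) and 1.82 in the A/J library of mouse 17, and the order of these 2 turned with plain library totals (1.55 and 1.92 CPM) and with the authors' TPM (0.597 and 0.789). Such a separation was seen for 0.693% of genes tested in brown fat, 0.88% in liver, 0.497% in muscle, 0.702% in subcutaneous and 0.229% in visceral fat.

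**Figure D1:**
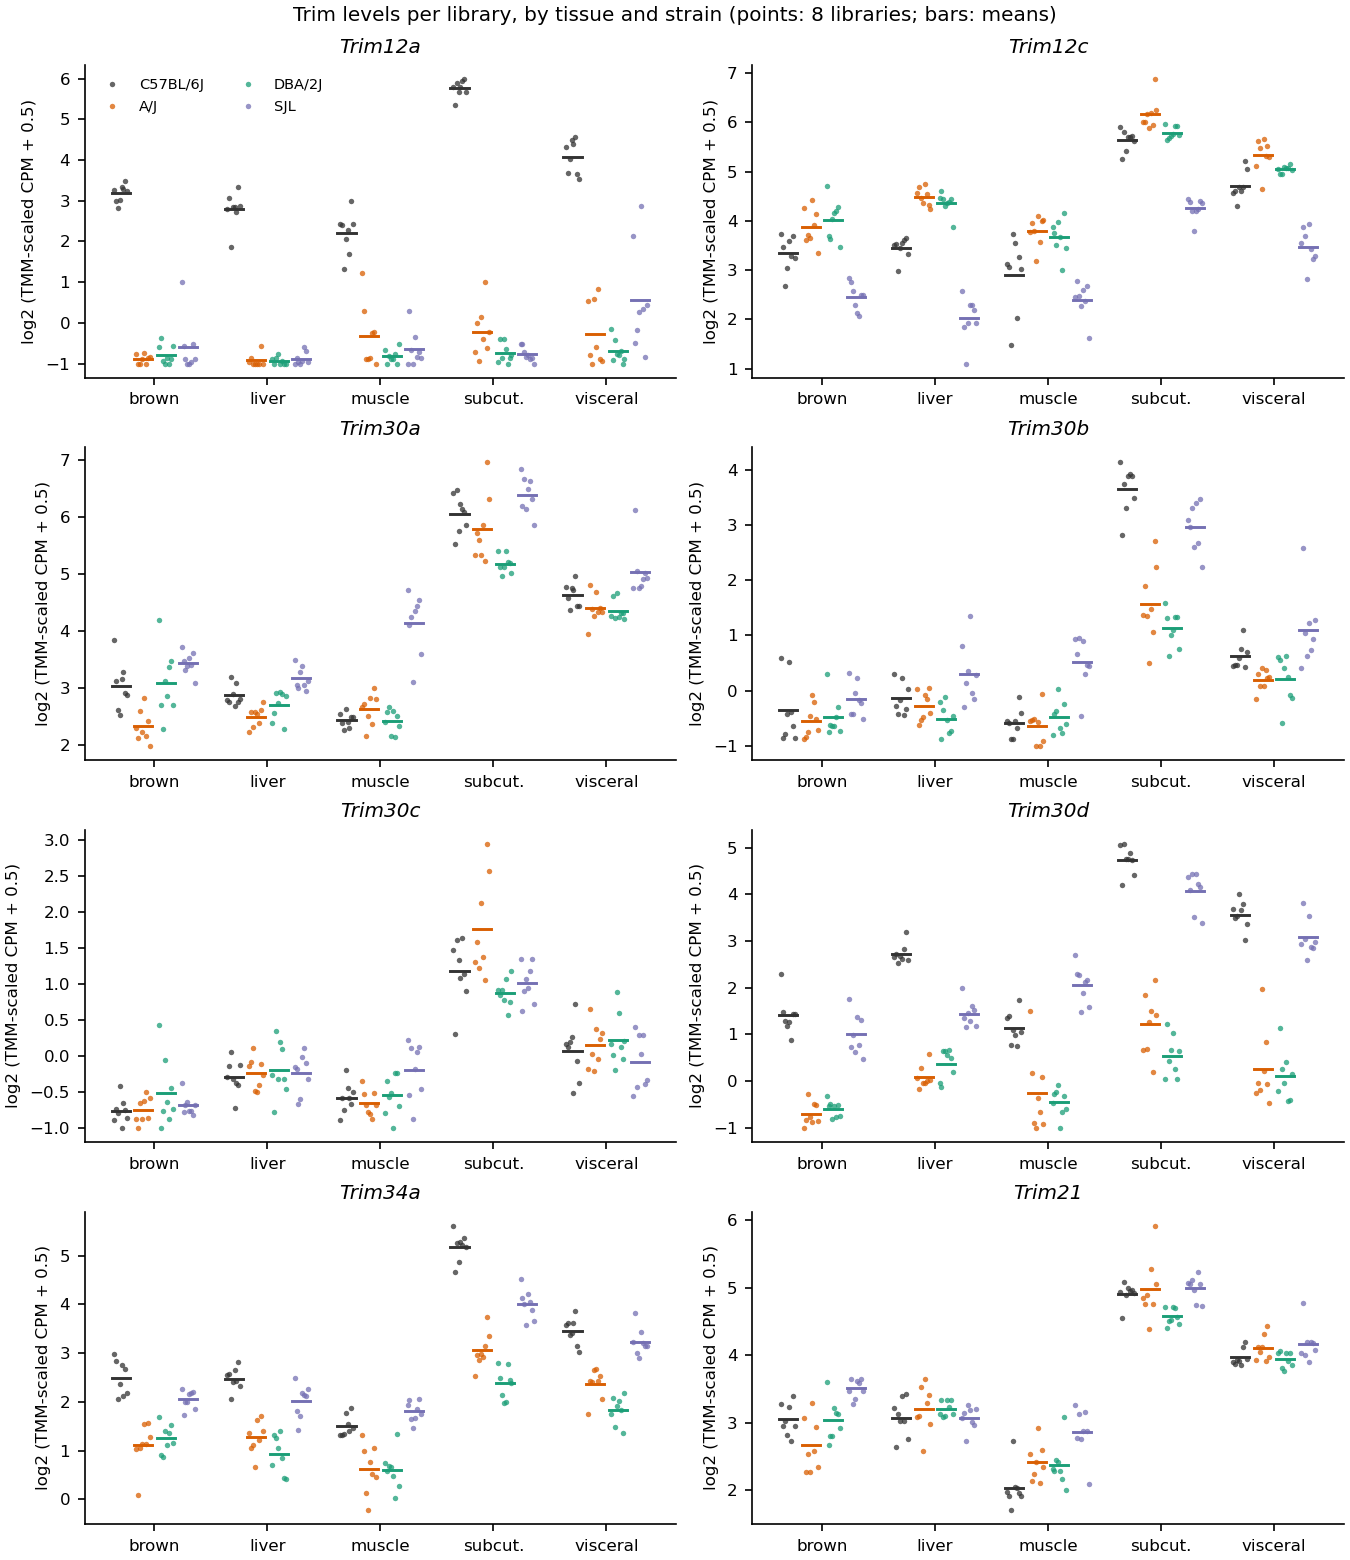
Level of each of the 8 genes as log2 of CPM plus 0.5 (vertical axis) by tissue (horizontal axis) and strain (colour), with 1 point per library and a bar at the mean of the 8 log2 values. Trim12a is seen in C57BL/6J, Trim30d and Trim34a are high in C57BL/6J and SJL, and Trim12c is low in SJL. Trim21 changes little between strains in liver and visceral fat.

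Of the 5 libraries of other strains with the most Trim12a, 4 also held C57BL/6J liver transcripts. The SJL visceral libraries of mouse 57 (vegetarian) and mouse 49 (American) had 6.82 and 3.91 CPM of Trim12a, and in them the liver genes that C57BL/6J has and SJL lacks stood at 50.3% and 49.4% of their C57BL/6J liver level. The A/J muscle library of mouse 17 had 1.82 CPM, with such genes at 33.0%, and the SJL brown fat library of mouse 49 had 1.49 CPM, with 19.4%. The other of the 5, the A/J subcutaneous library of mouse 27 (vegetarian), had 1.52 CPM and was not among the doubted libraries. Without the doubted libraries the SJL mean in visceral fat went from 1.71 ± 2.40 (SD, n = 8) to 0.480 ± 0.328 CPM (SD, n = 4).

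The reverse was seen in 2 C57BL/6J visceral libraries. Those of the vegan mice 13 and 16 held DBA/2J liver transcripts at 55.3% and 52.5% and had 12.1 and 11.1 CPM of Trim12a, the lowest of the strain; the highest there was 23.1 CPM. They also had 3.19 and 1.43 CPM of Trim34b, a gene at 0.133 to 0.943 CPM in the other C57BL/6J visceral libraries. What part this RNA had in the levels was not tested.

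Trim12c, the longer copy, which carries the full set of TRIM domains and has been linked to stronger interferon signalling, was present in every library and lowest in SJL. In liver SJL had 1.65, 3.71 and 5.49 CPM as lowest, median and highest, against 7.36, 11.02 and 12.1 in C57BL/6J, 18.5, 22.3 and 26.4 in A/J, and 14.2, 20.8 and 23.9 in DBA/2J. SJL lay below all other libraries, and C57BL/6J and SJL together below A/J and DBA/2J. In subcutaneous fat SJL had 18.8 ± 2.53 CPM (SD, n = 8), against 49.8 ± 6.96 in C57BL/6J, 73.0 ± 18.6 in A/J and 55.2 ± 5.004 in DBA/2J, with no overlap of SJL and the rest. In visceral fat SJL (10.9 ± 2.79 CPM) again did not overlap the rest, while in brown fat and muscle it was the lowest on average (5.08 ± 1.07 and 4.93 ± 1.16 CPM) and overlapped C57BL/6J. SJL lay below all others for 0.639% of genes in liver, 1.01% in subcutaneous and 0.233% in visceral fat, and C57BL/6J with SJL below the rest for 0.392% in liver.

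Because Trim12a and Trim12c exchange reads, their sum is also given. In C57BL/6J Trim12a made up 37.4 to 52.1% of the summed CPM on average, depending on the tissue. The sum in subcutaneous fat was 104 ± 13.3 CPM in C57BL/6J, 73.5 ± 18.4 in A/J, 55.3 ± 4.93 in DBA/2J and 18.9 ± 2.55 in SJL (SD, n = 8 each). In liver the order differed, with 22.2 ± 2.75 CPM in A/J, 20.3 ± 2.83 in DBA/2J, 17.2 ± 3.17 in C57BL/6J and 3.77 ± 1.16 in SJL. Trim12c and the sum were lowest in SJL in each of the 5 tissues. The near copy Trim5 was highest in SJL in brown fat, liver, muscle and visceral fat, and in C57BL/6J in subcutaneous fat. With Trim5 added, the sum was still lowest in SJL in each tissue. Its highest strain mean was then 3.14 times the lowest in liver, against 5.90 without Trim5. In muscle these ratios were 1.54 and 2.78, and in subcutaneous fat 3.70 and 5.51.

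**Figure D2:**
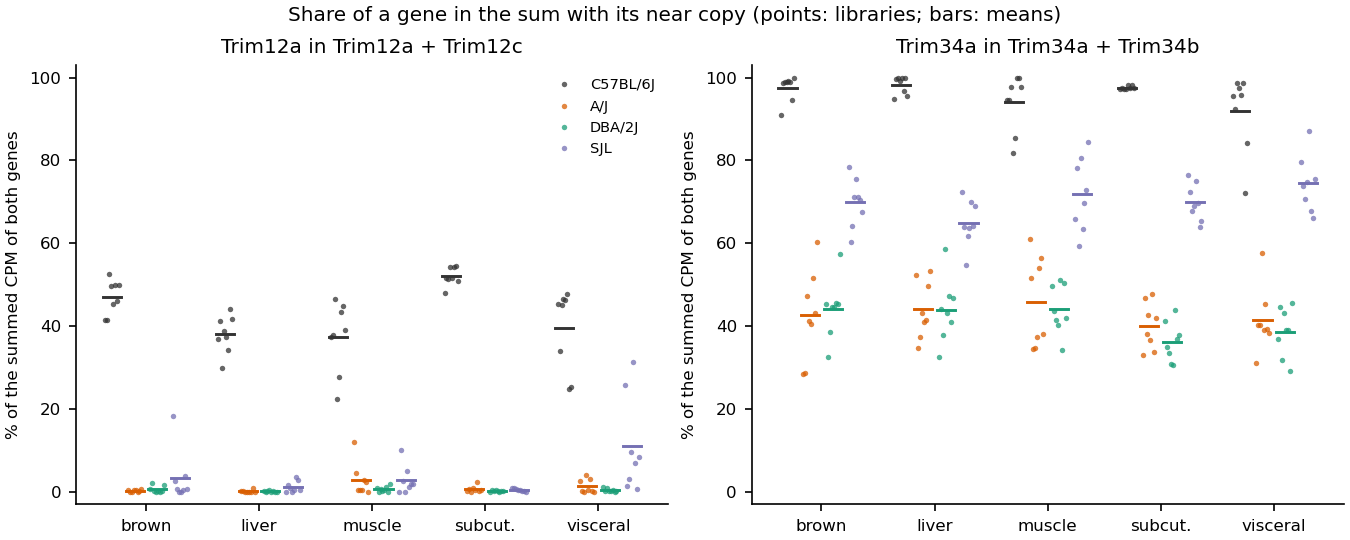
Share of Trim12a in the sum with Trim12c (left) and of Trim34a in the sum with Trim34b (right), in % of the summed CPM (vertical axis), by tissue and strain, with 1 point per library and a bar at the mean. Trim12a takes a mean of 37.4 to 52.1% in C57BL/6J, and Trim34a 91.9 to 98.2% in C57BL/6J against 36.2 to 45.9% in A/J and DBA/2J.

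Among the Trim30 genes, Trim30a had the highest mean of the 4 on the authors' TPM in each strain and tissue, in C57BL/6J liver by little (3.82 against 3.79 TPM for Trim30d), and across strains it was highest in SJL in each tissue. The clearest case was muscle, where the 8 SJL libraries had 25.8 and 16.7 CPM on the American, 18.6 and 8.16 on the Mediterranean, 20.1 and 21.4 on the vegetarian and 23.0 and 11.7 on the vegan diet. The highest library of any other strain had 7.56 CPM, so SJL did not overlap them, as was the case for 2.24% of genes in muscle. The SJL mean was 18.2 ± 5.84 CPM, against 5.80 ± 1.15 in A/J, 4.94 ± 0.476 in C57BL/6J and 4.92 ± 0.720 in DBA/2J (SD, n = 8 each). Leukocyte markers moved with it: the summed CPM of 10 such genes (Ptprc, Cd53, Laptm5, Coro1a, Arhgdib, Rac2, Lcp1, Cd52, Cd48 and Was) was 153 to 269 in SJL muscle and 52.1 to 123 in that of the other strains. Macrophage markers did as well, with 12 genes summing to 653 to 1078 CPM in SJL muscle and to at most 531 CPM in that of the other strains. Their part in the difference was not tested; in bulk tissue fewer cells of a type and less RNA per cell cannot be told apart.

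Elsewhere the strains overlapped for Trim30a. In brown fat SJL had 10.44 ± 1.42, DBA/2J 8.70 ± 4.21, C57BL/6J 8.07 ± 2.71 and A/J 4.61 ± 1.02 CPM (SD, n = 8 each). In liver SJL had 8.58 ± 1.26, C57BL/6J 6.89 ± 0.973, DBA/2J 6.08 ± 1.09 and A/J 5.19 ± 0.680 CPM, a spread of 1.65 times between the highest and lowest mean. In subcutaneous fat SJL had 85.4 ± 18.8, C57BL/6J 67.8 ± 14.8, A/J 59.9 ± 29.7 and DBA/2J 36.0 ± 4.22 CPM (SD, n = 8 each), with SJL running from 57.4 to 114 and DBA/2J from 30.7 to 42.0. In visceral fat SJL had 34.2 ± 14.3 CPM, a value raised by the American mouse 50, whose library had 69.0 CPM; it had no Wt1, 16.3 CPM of Hoxc10 and 147 CPM of the B cell gene Cd79a. Without doubted libraries SJL visceral fat had 30.3 ± 2.85 CPM (SD, n = 4), still the highest mean of the 4 strains.

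Trim30d, the closest copy of Trim30a, followed another pattern and was high in C57BL/6J and SJL. In liver C57BL/6J ran from 5.31 through a median of 5.83 to 8.60 CPM and SJL from 1.72 through 2.15 to 3.49, whereas A/J ran from 0.392 through 0.512 to 0.989 and DBA/2J from 0.412 through 0.942 to 1.09. In subcutaneous fat the means were 26.6 ± 5.31 CPM in C57BL/6J, 16.9 ± 4.36 in SJL, 2.04 ± 1.12 in A/J and 1.02 ± 0.473 in DBA/2J (SD, n = 8 each). In visceral fat they were 11.6 ± 2.36 CPM in C57BL/6J, 8.26 ± 2.69 in SJL, 0.904 ± 1.06 in A/J and 0.646 ± 0.472 in DBA/2J, and in brown fat 2.26 ± 0.921, 1.59 ± 0.671, 0.123 ± 0.108 and 0.169 ± 0.0775. In muscle SJL was highest with 3.81 ± 1.18 CPM, followed by C57BL/6J with 1.76 ± 0.551, A/J with 0.4997 ± 0.776 and DBA/2J with 0.242 ± 0.141. C57BL/6J and SJL together did not overlap A/J and DBA/2J in brown fat, liver, subcutaneous and visceral fat, a separation seen for 0.223%, 0.22%, 0.217% and 0.0528% of genes in these tissues. In muscle the A/J library of mouse 17, which held C57BL/6J liver transcripts, had 2.32 CPM and overlapped them; without doubted libraries the groups separated there too (0.373% of genes), and SJL alone then stood above the rest (2.83% of genes). The ratio of the highest to the lowest strain mean was between 10.7 in liver and 26.2 in subcutaneous fat.

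Trim30b and Trim30c were low outside subcutaneous fat. Trim30b, whose coding sequence of 609 bases is the shortest of the 8, reached 12.6 ± 3.44 CPM in C57BL/6J and 7.65 ± 2.29 in SJL subcutaneous fat, against 2.82 ± 1.67 in A/J and 1.74 ± 0.488 in DBA/2J (SD, n = 8 each). In brown fat, liver and muscle its strain means were between 0.154 and 1.00 CPM, that is 0 to 51 estimated counts per library. Trim30c had 1.35 to 3.30 CPM on average in subcutaneous fat and at most 0.695 CPM in any strain and tissue elsewhere. Its strains overlapped in every tissue, and at these counts smaller differences were not detectable.

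Trim34a resembled Trim30d. In subcutaneous fat C57BL/6J had 24.8, 37.3 and 48.3 CPM as lowest, median and highest and lay above all other libraries, of which SJL had 11.4, 15.8 and 22.4, A/J 5.32, 7.38 and 12.9, and DBA/2J 3.47, 4.84 and 6.42. In brown and visceral fat C57BL/6J and SJL together lay above A/J and DBA/2J, in brown fat narrowly (lowest SJL library 2.83, highest DBA/2J library 2.71 CPM). In liver the means were 5.13 ± 0.879 CPM in C57BL/6J, 3.65 ± 0.946 in SJL, 1.97 ± 0.549 in A/J and 1.47 ± 0.510 in DBA/2J (SD, n = 8 each), and neighbours in this order overlapped. In muscle SJL had 3.03 ± 0.497 CPM and C57BL/6J 2.37 ± 0.451, against 1.13 ± 0.543 in A/J and 1.07 ± 0.443 in DBA/2J; the highest DBA/2J library (2.03 CPM) overlapped the lowest of C57BL/6J (1.99 CPM). The near copy Trim34b was lowest in C57BL/6J in all 5 tissues, with a mean of 0.912 ± 0.258 CPM in the subcutaneous fat of C57BL/6J and of 12.5 ± 5.37 in A/J, 8.32 ± 0.700 in DBA/2J and 6.67 ± 0.868 in SJL (SD, n = 8 each). Over the 5 tissues Trim34a made up 91.9 to 98.2% of the sum of both in C57BL/6J, 65.0 to 74.5% in SJL and 36.2 to 45.9% in A/J and DBA/2J. The sum itself differed less between strains, by 1.31 times between the highest and lowest mean in brown fat and 2.84 times in subcutaneous fat, where Trim34a alone differed by 3.03 and 7.56 times.

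Trim21, the one gene outside the cluster, had the smallest ratio between strain means of the 8 genes in each tissue. Its levels were similar in liver and visceral fat and differed more in brown fat and muscle. The highest strain mean was 1.12 times the lowest in liver, 1.20 in visceral fat, 1.399 in subcutaneous fat, 1.81 in brown fat and 1.90 in muscle. In liver the 4 means lay between 7.96 ± 0.964 CPM in SJL and 8.92 ± 2.11 in A/J (SD, n = 8 each). In muscle SJL was highest with 6.97 ± 1.68 CPM and C57BL/6J lowest with 3.68 ± 1.03. In brown fat SJL was again highest with 10.9 ± 1.08 CPM, against 7.89 ± 1.87 in DBA/2J, 7.87 ± 1.36 in C57BL/6J and 6.05 ± 1.86 in A/J. In subcutaneous fat A/J had 32.7 ± 12.1, SJL 31.7 ± 3.78, C57BL/6J 29.8 ± 3.04 and DBA/2J 23.4 ± 2.00 CPM. The strains overlapped in every tissue.

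Subcutaneous fat was the tissue with the most of these transcripts. Its mean was the highest of the 5 tissues in 29 of 32 pairs of gene and strain by CPM of plain library totals, the exceptions being Trim12a in A/J, highest in muscle, and in DBA/2J and SJL, highest in visceral fat. Without the doubted libraries the A/J exception was gone. Visceral fat came next in 28 of 32. Within single mice, Trim12c, Trim30a, Trim30b, Trim30c and Trim21 were higher in subcutaneous than in visceral fat in 29 of 29 mice, Trim34a in 28, Trim30d in 26 and Trim12a in 18. The ratio of the means over these mice was 5.95 for Trim30b, 3.73 for Trim30c, 2.57 for Trim30a, 1.84 for Trim21 and 1.82 for Trim12c.

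On the authors' TPM, which allow for gene length, the order of the genes differed between strains. In C57BL/6J subcutaneous fat it was Trim30a (47.8 TPM), Trim34a (40.7), Trim12c (38.6), Trim12a (27.2), Trim21 (23.2), Trim30d (20.5), Trim30b (4.85) and Trim30c (3.16). In DBA/2J it was Trim12c (40.5 TPM), Trim30a (24.0), Trim21 (17.2), Trim34a (5.11), Trim30c (2.14), Trim30d (0.725), Trim30b (0.638) and Trim12a (0.0485).

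Leukocyte markers followed the same order of the fat depots. The summed CPM of the 10 markers ran from 475 to 3475 with a median of 2066 in subcutaneous fat, and had medians of 516 in visceral fat, 148 in liver, 83.4 in muscle and 77.4 in brown fat; none of the 10 was at 0 throughout a group. In subcutaneous fat 7 B cell markers summed to a median of 682 CPM and 9 T cell markers to 502 CPM, against 24.3 and 16.2 CPM in visceral fat. The A/J subcutaneous library of mouse 24, which had almost no Hoxc10 (0.291 CPM), was the lowest of its tissue for leukocyte markers. The part of leukocyte content in the order of tissues was not tested.

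Diet changed none of the 8 genes by edgeR's quasi-likelihood test at a Benjamini-Hochberg adjusted p under 0.05. All 8 passed the filter on low counts in each tissue; Trim12a did so through C57BL/6J. In each tissue 5 tests were made: all diets together, each of 3 diets against the American one, and the interaction of strain and diet. They gave 200 values for the 8 genes, of which 21 had an unadjusted p under 0.05. In brown fat on the Mediterranean diet 14.2% of all genes tested had such a p. For the other tests that share is not given here. The 21, and the counts over several tests below, are therefore not read as an excess. The tests called few genes of any kind: in brown fat 0.416% over all diets, 0.104% for the Mediterranean, 0.267% for the vegetarian and 0.0148% for the vegan diet and 0.0099% for the interaction, and in liver 0.102%, 0.145%, 0%, 0.113% and 0%. In muscle and subcutaneous fat all 5 tests called 0%, and in visceral fat the 4 diet tests 0% and the interaction 0.392%. A p above the threshold does not show that a level stayed the same.

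Of the 120 diet differences, 12 had an unadjusted p under 0.05. Trim12a gave 6 of them, brown fat on the Mediterranean diet held 4, and the diets of a tissue are compared with the same American libraries. There the log2 difference from the American diet was -1.77 for Trim12a (SE 0.530, unadjusted p = 0.00175, adjusted p = 0.121 by edgeR), -0.48 for Trim12c (SE 0.164, adjusted p = 0.180), -0.50 for Trim30a (SE 0.194, adjusted p = 0.234) and -0.31 for Trim21 (SE 0.137, adjusted p = 0.296). All 8 estimates were below 0, with a median of -0.49, beside a median of -0.03 over the 20210 genes tested. For Trim12c the lowest, median and highest of 8 libraries were 6.27, 12.2 and 25.5 CPM on the American and 4.37, 9.82 and 15.9 CPM on the Mediterranean diet, so the groups overlapped.

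The Trim12a estimate depended on 1 library with little of it: without mouse 49 it was -0.63 (adjusted p = 0.467 by edgeR). In C57BL/6J, the strain with most of the counts, brown fat had 8.24 ± 1.11 CPM on the American and 7.09 ± 0.795 on the Mediterranean diet (SD, n = 2 each). The SJL American libraries had 0.831 ± 0.934 CPM (SD, n = 2), and 1 of them was the doubted library of mouse 49. Without the doubted libraries the Mediterranean difference was -0.48 (SE 0.309, adjusted p = 0.503 by edgeR). DESeq2 on all libraries put it at -2.85 (SE 0.794, adjusted p = 0.0422) and so called it, as it called 1.06% of genes, and it called the interaction for Trim12a as well (adjusted p = 0.0325, 2.4% of genes). With mouse 2 left out, edgeR gave -2.36 (adjusted p = 0.0433), a call shared by 0.502% of genes. Over the 32 fits that leave out 1 mouse each, the estimate ran from -2.36 to -0.63.

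**Figure D3:**
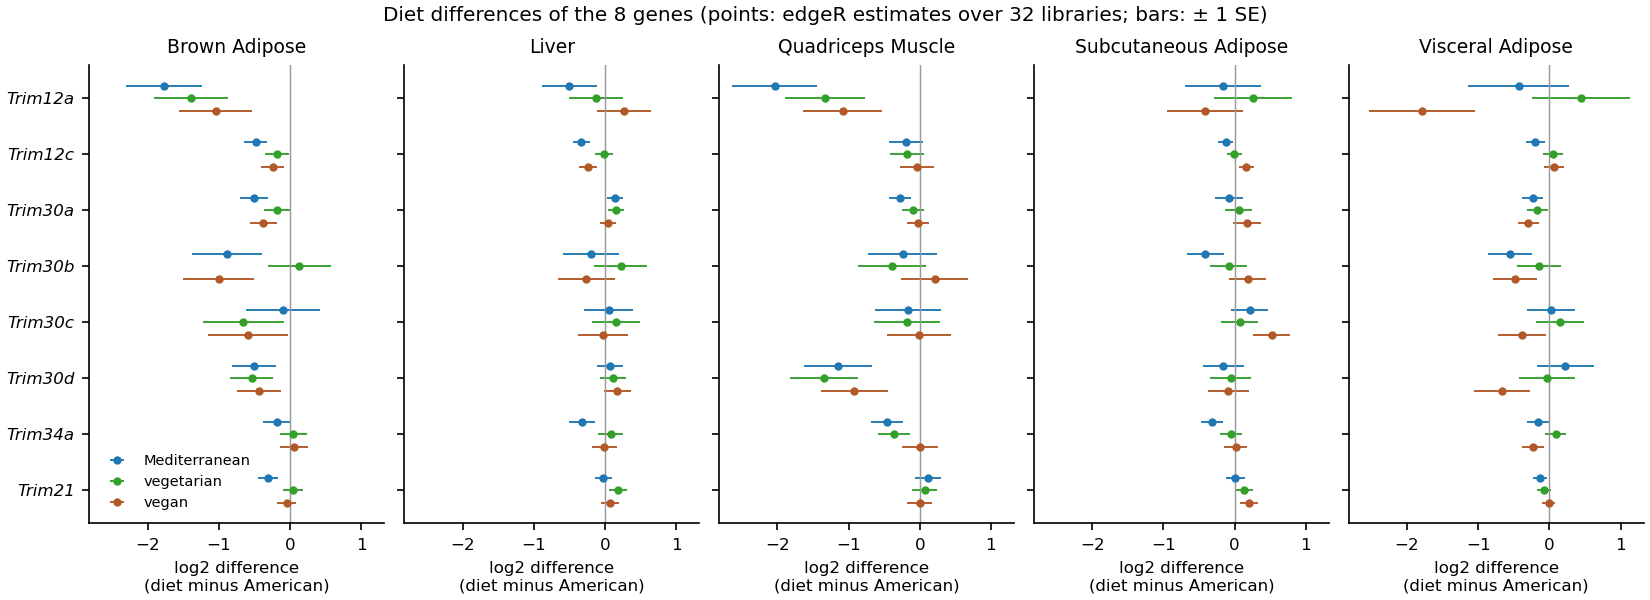
Log2 difference of each diet from the American diet (horizontal axis) for the 8 genes (vertical axis) in each tissue, as edgeR estimates over 32 libraries with bars of 1 SE; diets are coloured. Trim12a, Trim30b, Trim30c and Trim30d have wide bars in brown fat, and the brown fat Mediterranean points all lie below 0.

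In the other tissues the estimates were small or wide. In liver the 24 differences of the 8 genes ran from -0.50 to 0.27 with a median of 0.05, and Trim12c on the Mediterranean diet (-0.33, SE 0.124, adjusted p = 0.201 by edgeR) was the only one with an unadjusted p under 0.05. In subcutaneous fat they ran from -0.42 to 0.52, with none under it. In muscle Trim12a (-2.03 Mediterranean, -1.33 vegetarian) and Trim30d (-1.15 and -1.35) had an unadjusted p under 0.05 and adjusted p of 0.935 to 1.00 by edgeR. The American A/J library of mouse 17 was the highest of its strain for both genes. Without the doubted libraries, that one included, the 4 values ran from -1.90 (Trim12a, Mediterranean) to -0.85 (Trim30d, vegetarian). In visceral fat Trim12a on the vegan diet was at -1.79 (SE 0.740, adjusted p = 0.530 by edgeR). The 2 C57BL/6J vegan libraries were those with DBA/2J liver transcripts, and both were doubted. Without doubted libraries the value was -3.56, from a fit with no C57BL/6J vegan library. The vegan libraries left in that fit were of strains with Trim12a at or near 0.

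Genes related to the 8 by position or function were tested in the same fits, and edgeR's test called none of them. This covers up to 7 of 8 neighbouring Trim genes such as Trim5 and Trim68, 16 other antiviral Trim genes, 20 restriction factors outside the family, 38 interferon-stimulated genes and 14 partners and targets of TRIM30 and TRIM21, each with 0 called in 25 tests. In the order given, 12, 44, 63, 75 and 28 of their values over these tests had an unadjusted p under 0.05. The share of all genes over the same tests is not given here, so these counts are not read as a result about the lists. DESeq2 called 1, 5, 4, 7 and 3 values, of which Pml, Mov10, Oas3 and Oasl2 were in brown fat on the Mediterranean diet and most of the others in the interaction in visceral fat (Isg15 and Irf7, for example), where it called 8.4% of all genes. It called 1.01% of genes in brown fat on the vegetarian diet and 1.13% for the interaction in liver. In brown fat on the Mediterranean diet 17 of the 38 interferon-stimulated genes had an unadjusted p under 0.05, with a median log2 difference of -0.36, and 12 of the 20 restriction factors, with a median of -0.32. These were the highest such counts of both lists over the 25 tests; without the doubted libraries they were 13 and 10. Of all genes tested there, 14.2% had an unadjusted p under 0.05, with and without those libraries. Oasl2, an interferon-induced member of the oligoadenylate synthetase family, had -0.78 (SE 0.203, adjusted p = 0.0833 by edgeR), and Mov10, an RNA helicase that limits retroviruses, -0.65 (SE 0.164, adjusted p = 0.0768). Of the leukocyte lists, brown fat called 3 of 9 T cell and 4 of 7 B cell markers over all diets (Cd5, Trac, Cd3d, Blk, Pax5, Cd79a and Cd79b), with Blk, a kinase of B cell receptor signalling, lower on the vegetarian diet by itself (-3.43, SE 0.690, adjusted p = 0.0295 by edgeR). Liver called 3 of 12 macrophage markers as higher on the Mediterranean diet: C1qb by 0.68 (SE 0.139), Csf1r by 0.76 (SE 0.155) and C1qa by 0.64 (SE 0.140) on the log2 scale, with adjusted p of 0.0364, 0.0364 and 0.0499 by edgeR.

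The lymphocyte genes in brown fat were high in a few American libraries. Cd79a, a subunit of the B cell receptor, was at 12.9, 18.8 and 6.45 CPM in the American libraries of mice 1, 33 and 50, at 1.32 to 1.90 CPM in the other 5 American libraries and at no more than 4.91 CPM in any library of the other diets. The first and second of these libraries were also the highest of their strain for Trim30a, with 13.9 CPM in C57BL/6J and 17.7 in DBA/2J. With Cd79a as a covariate the Trim12a difference on the Mediterranean diet went from -1.77 to -2.76 (SE 0.679, adjusted p = 0.0948 by edgeR). In the same fit the differences of more abundant members came nearer to zero. Trim30a went from -0.50 to -0.10, Trim12c from -0.48 to -0.21 and Trim21 from -0.31 to -0.05. Cd79a was itself called over all diets in brown fat, so this fit cannot tell lymphocyte content and diet apart. Without the doubted libraries 23 different genes of these lists were called in brown fat, among them 8 of 9 T cell and 7 of 7 B cell markers, all lower on the Mediterranean diet. That fit called 1.83% of genes over all diets, 1.7% for the Mediterranean, 1.9% for the vegetarian and 2.15% for the vegan diet, and 0 of the 8 genes. In it Irf8, a transcription factor of myeloid and B cells, was lower on each diet, at -0.98 (SE 0.250, adjusted p = 0.0424 by edgeR) on the Mediterranean one. Fv1, a restriction factor against murine leukaemia virus, was higher by 0.56 (SE 0.131, adjusted p = 0.0327 by edgeR) on the vegetarian diet. Marchf8, a ubiquitin ligase that lowers viral envelope proteins, was higher by 0.30 (SE 0.0705, adjusted p = 0.0353 by edgeR) on the vegan diet. What part lymphocytes in these libraries had in the levels of the 8 genes was not tested.

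Between mice of the same strain, levels of the 8 genes correlated mostly positively with those of interferon-stimulated genes. The mice of a strain were on all 4 diets and diet was not taken out, so differences between diets are part of these correlations. For each strain and tissue in which a gene averaged at least 1 CPM, its log2 CPM was correlated over the 8 mice with the mean log2 CPM of 38 interferon-stimulated genes such as Isg15 and Irf7, and with that of the 10 leukocyte markers. This gave 107 correlations per list and 214 in all, each with a two-sided exact permutation p adjusted over the 214. Of the 107 with interferon-stimulated genes 94 were positive, the median r was 0.64 and 17 passed, all positive. Of the 107 with leukocyte markers 73 were positive, the median r was 0.36 and 3 passed. The same counts over all genes are not given here, so these do not set the 8 genes apart from other genes.

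Brown fat and muscle held most of the first kind. In brown fat 19 of 19 correlations with interferon-stimulated genes were positive and 7 passed, in muscle 20 of 20 and 4, in subcutaneous fat 25 of 28 and 4, in visceral fat 16 of 21 and 2, and in liver 14 of 19 and 0. Trim30a passed in brown fat of C57BL/6J (r = 0.96, rho = 0.93), DBA/2J (r = 0.90, rho = 0.90) and SJL (r = 0.88, rho = 0.88), in SJL muscle (r = 0.95, rho = 0.88) and in A/J subcutaneous fat (r = 0.94, rho = 0.90). With the 2 libraries farthest from the median of the list left out these became 0.87, 0.86, 0.75, 0.83 and 0.76. Trim12c in DBA/2J brown fat had r = 0.91 and rho = 1, with the smallest p that the pairings gave here (exact permutation p = 2.48e-05, adjusted p = 0.00265). Trim30d in C57BL/6J subcutaneous fat had r = 0.95 and rho = 0.95 (exact permutation p = 9.92e-05, adjusted p = 0.00708).

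The Trim30b window that was searched lay inside the annotated gene and lacked the motif letters. Trim30b averaged at least 1 CPM in 6 groups and had 5 positive correlations of 6, with a median r of 0.67. Trim30c, whose window also lacked the motif letters, had 4 positive of 4 and a median r of 0.66. Among genes whose promoters hold the motif, the median r was 0.69 over 20 groups for Trim34a and 0.69 over 11 for Trim30d. It was 0.67 over 20 for Trim30a and 0.60 over 20 for Trim12c. Trim21, with the shorter motif, had a median of 0.61 over 20 groups. Trim12a, in 6 groups, had 4 of 6 positive and a median of 0.19. Its groups included SJL visceral fat, where only the doubted libraries of mice 57 and 49 (6.82 and 3.91 CPM) exceeded 1 CPM. No correlation passed in both lists for the same gene, strain and tissue. The 3 that passed with leukocyte markers were all in C57BL/6J subcutaneous fat: Trim30a (r = 0.94, rho = 1), Trim12c (r = 0.91, rho = 0.90) and Trim21 (r = 0.89, rho = 0.83).

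**Figure D4:**
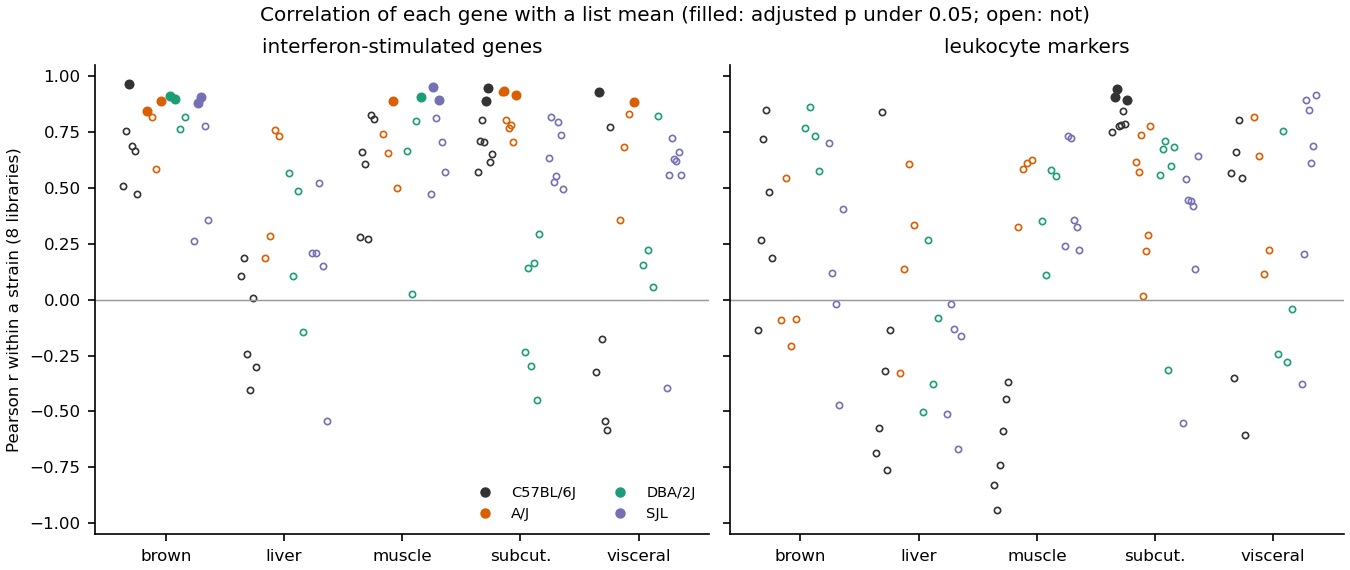
Pearson r of each gene with the mean of 38 interferon-stimulated genes (left) or 10 leukocyte markers (right) within a strain of 8 libraries (vertical axis), by tissue and strain; filled points have an adjusted p under 0.05. Most points on the left lie above 0, with 17 filled, and 3 are filled on the right.

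**Figure D5:**
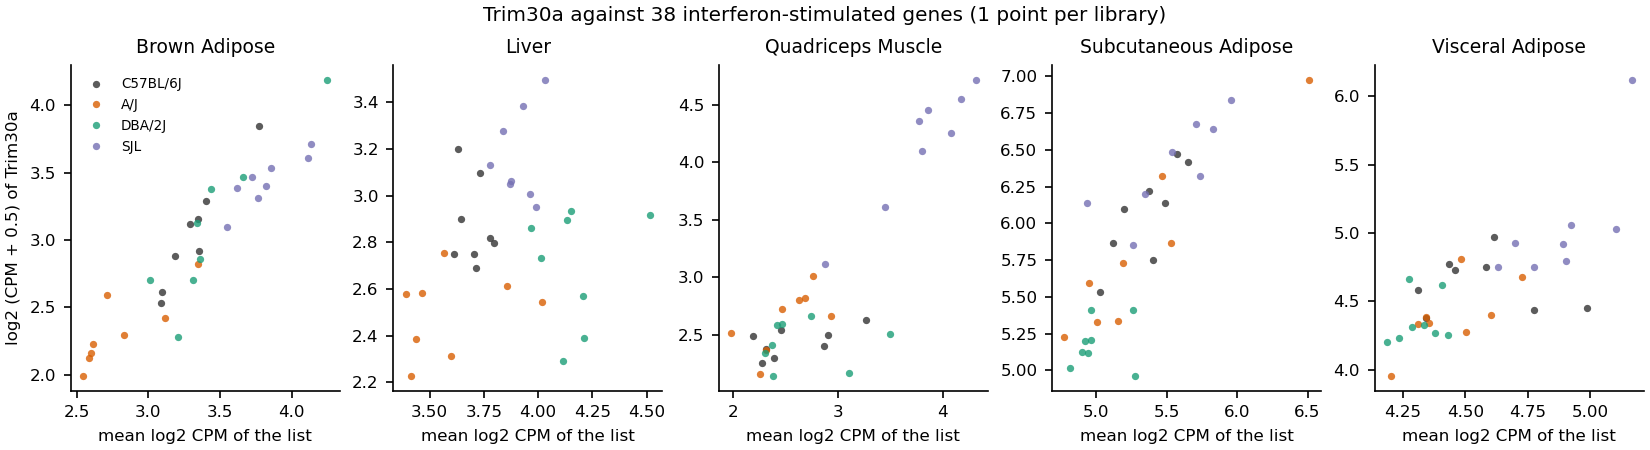
Log2 CPM of Trim30a (vertical axis) against the mean log2 CPM of 38 interferon-stimulated genes (horizontal axis) in each tissue, with 1 point per library and strains coloured. In muscle the SJL points stand above those of the other strains, and within SJL r was 0.95.

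The number that passed depended on how it was counted. With plain library totals in place of scaled ones 36 passed for interferon-stimulated genes and 17 for leukocyte markers, and with rank correlations 4 and 1. With the 2 farthest libraries left out of each group, which leaves 6 mice, 87 of 107 correlations with interferon-stimulated genes were still positive, with a median of 0.48, and 0 passed.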

How the data were processed

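RNA of 160 libraries (5 tissues, 4 strains, 4 diets, 2 mice per strain, diet and tissue) was sequenced as stranded libraries with paired reads of 150 bases, per the labels' protocols. Per the series' design text, the authors used FastQC for quality, Trim Galore for adapters, HISAT2 for alignment to GRCm39 (mismatches in strains other than C57BL/6J were penalised less) and HTSeq for counting, sharing out reads that fit several places. The sources used here give no tool versions, annotation, strand setting of the counting or gene lengths behind the TPM. The deposited table of estimated counts therefore holds fractions: 74.4% of its values above 0 were whole within 1e-06. A second deposited table holds TPM, which allow for gene length and sum to the same total in each library.

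Of 56980 gene IDs, 56236 were matched to GENCODE vM39 on GRCm39 for names and positions. The members and the gene lists were chosen with earlier results of these data known. Each library was placed by its label for mouse, tissue, strain and diet.

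Estimated counts were rounded and fitted per tissue with edgeR 4.0.16 (R 4.3.3): filterByExpr on the 16 groups of strain and diet (count minimum 10, total minimum 15), TMM scaling, a robust quasi-likelihood fit of strain plus diet, and for the interaction of strain and diet a fit with both and their product. P-values were adjusted by Benjamini-Hochberg over all genes tested in each test and called under 0.05. SE is the standard error of the log2 difference. The fit was tested on simulated counts with known changes. CPM in the text are scaled by TMM within a tissue, except across tissues, where plain library totals were used; logs of CPM add 0.5. Correlations used Python 3.11.15 with numpy 2.4.6 and pandas 2.3.3, and figures matplotlib 3.10.9. Totals of 17996919 to 54796454 estimated counts per library limit the precision of the low genes.

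A library was doubted where, outside the liver, Alb exceeded 10% of the liver mean, where liver genes specific to another strain exceeded 10% of that strain's liver level, or where Wt1 (visceral) or Hoxc10 (subcutaneous) fell under 10% of the depot median. The diet tests were repeated with DESeq2 1.42.0, with RLE size factors, with no filter, with limma 3.58.1 on log2 of TPM plus 1 for genes of at least 1 TPM on average, with a model of 16 groups averaged over strains, with a Cd79a covariate in brown fat, with each mouse left out, and with all doubted libraries left out. For levels the alternatives were the authors' TPM and plain library totals, and for correlations plain totals, the median of the list, the 2 farthest libraries left out, and rank correlation, which was added after seeing the data.

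All 8 members are named. Of each list, up to 4 called genes with the smallest p, or otherwise up to 2, could be named; Irf8, Fv1, Marchf8 and the list genes that DESeq2 called were named after their values were seen. Genes of a like pattern are the 3 with the highest correlation.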

Additional observations from a re-analysis of the deposited data

Results flagged for a closer look

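Of 107 groups of 8 libraries (1 gene in 1 strain and tissue, with a mean of at least 1 CPM), 14 had a library far from the other 7 by Dixon's test, where chance gives about 1 in 20 groups; 6 of the 14 were doubted libraries. Values are CPM, with the nearest of the others after each.

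In subcutaneous fat the A/J library of the vegan mouse 30 stood high for Trim12c, at 117 CPM with the next at 75.5, and for Trim21, at 59.9 with the next at 38.4. There the SJL library of the Mediterranean mouse 55 was low for Trim12c at 13.4 CPM (next 17.9), and the C57BL/6J library of the American mouse 2 was low for Trim21 at 23.0 CPM (next 29.1).

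In visceral fat the SJL library of the American mouse 50 was high for Trim30a at 69.0 CPM (next 32.8), for Trim30b at 5.55 (next 1.92) and for Trim21 at 26.8 (next 17.9). In brown fat the C57BL/6J library of the American mouse 1 was high for Trim30a at 13.9 CPM (next 9.27) and for Trim30d at 4.41 (next 2.30), and the DBA/2J library of the American mouse 33 for Trim30a at 17.7 CPM (next 10.6).

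In muscle the DBA/2J library of the vegan mouse 45 was high for Trim34a at 2.03 CPM (next 1.17) and for Trim21 at 7.95 (next 4.95), and the C57BL/6J library of the Mediterranean mouse 8 was high for Trim21 at 6.14 CPM (next 3.62). In liver the C57BL/6J library of the vegan mouse 13 was high for Trim30d at 8.60 CPM (next 6.56).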

How the results depend on the processing

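No paired analysis was possible because the groups compared within a tissue are different mice and share no mouse numbers. The number of the 8 genes called in brown fat went from 0 to 1 with DESeq2, for the diet tests and for the interaction alike, and was 0 to 1 over the fits that each leave out 1 mouse; it stayed at 0 in the other tissues over those fits. The Trim12a difference in brown fat on the vegan diet, -1.04, reversed to 0.16 without doubted libraries and to 0.044 without mouse 49 (-1.57 to 0.044 over the mice left out in turn). The number of genes with strains apart in muscle, 2, was 1 with plain library totals and 1 with the authors' TPM, where Trim12a was lost, and 4 without doubted libraries. Correlations past the threshold, 17 for interferon-stimulated genes and 3 for leukocyte markers, became 36 and 17 with plain totals, 0 and 0 without the 2 farthest libraries, 10 and 2 with the median of the list, 8 and 3 of 78 each without doubted libraries, and 4 and 1 with rank correlation, which was added after seeing the data. Genes of the lists called in brown fat rose to 23 without doubted libraries. Of the other values, 65 counts, 70 log2 differences of single genes and 317 means kept their size or their side of the threshold, while 3 means moved by more than 1 SD and 1 difference passed it (Trim12a with DESeq2). The causes were not tested. At 2 mice per strain and diet, small diet differences were not detectable, and Trim30b and Trim30c were near the limit of counting outside subcutaneous fat.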

Other observations

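The genes whose pattern was most like each member were taken from 16883 genes, first over the 20 means of tissue and strain and then over the 160 libraries after the mean of each tissue and strain was subtracted. The values are Pearson r of log2 CPM, given as a description; the points share tissues, libraries and their depth.

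Over the 20 means, Trim21 was most like Irf1 (r = 0.99), a transcription factor of the interferon response, Gm17334 (0.99) and Adar (0.98), which edits double-stranded RNA. Trim30a was most like Ebi3, a cytokine subunit, Slfn2 and Phf11b (0.99 each). Trim30d followed Gm47248 (0.95), Trim5 (0.94) and Gvin3 (0.90), and Trim34a followed A430033K04Rik (0.94), Fancc (0.93) and Aoah (0.92). Trim30b was most like the immunoglobulin genes Ighv3-6 (0.98), Ighg2b (0.98) and Ighv1-26 (0.97). Trim12a was most like Gm12411 (0.99), Gm6344 (0.97) and Gm10709 (0.97), and Trim12c like H2-Q5 (0.92), Snhg17 (0.91) and Gm11131 (0.91).

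Between mice of a strain and tissue, with the diets pooled, the nearest genes were as follows. Trim30a was most like Ifi209 (r = 0.74), Samhd1 (0.72), which limits retroviruses by degrading nucleotides, and Sp100 (0.72). Trim21 was most like Parp14 (0.70), Ifi47 (0.68) and Or2v1 (0.67), and Trim34a like Nlrc5 (0.63), Samd9l (0.60) and Gm45193 (0.59). Trim30b was most like Ifi208 (0.65), Ms4a4c (0.64) and Ifit1bl1 (0.62), and Trim30d like Slfn8 (0.64), Trim5 (0.59) and Gm47248 (0.57). Trim12c was most like Psip1 (0.78), Dmtf1 (0.74) and Rbm4b (0.73), and Trim12a like Gm10709 (0.79), Or5m3b (0.76) and Gm6344 (0.74). Between members, r over these 160 values was 0.63 for Trim30a with Trim30b, 0.54 for Trim30a with Trim21 and 0.15 for Trim12a with Trim12c, which share reads.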
